A study of Homo sapiens with 8 samples.

Results

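A set of 10 genes was followed across 8 bead arrays of the human melanoma line HT144, an established line: the YAP target genes ANKRD1, CCN1, CCN2 and AMOTL2, and the contractile cytoskeleton genes TPM1, TPM2, TPM4, TAGLN, MYL9 and CNN1. They were chosen by name, with earlier results of these data known. Every probe whose platform annotation gave one of these symbols was taken. That gave 20 probes for the 10 genes, of the 48102 probes used. The arrays held 2 samples labelled SETDB1 OE, for overexpression of the histone methyltransferase SETDB1, 3 samples labelled HC/KA-SETDB1 OE, for overexpression of a mutant of it, and 3 samples that carried an empty vector. All groups share the HT144 line, and no drug or time is given in the labels. What HC/KA stands for, which promoter drives the constructs, and whether the cells were clones or pools is not given in the sources used. The labels do not tell separate cultures from repeat samples of one culture, and the p-values therefore cover the spread of these samples alone, some of which may be technical.

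YAP and its paralog WWTR1 (TAZ) are transcription coactivators that sit at the end of the Hippo pathway. When the Hippo kinases are inactive they enter the nucleus and, on DNA-bound TEAD proteins, switch on genes such as ANKRD1 and the CCN genes. Tension on the actin cytoskeleton is a known trigger of YAP, and actin state also controls SRF through its MRTF coactivators, which drive many tropomyosin, transgelin and myosin light chain genes. In melanoma, YAP and SRF/MRTF activity are known for their link to invasive, less pigmented cell states and to drug tolerance.

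The promoter windows below are shown because TEAD proteins bind the letters GGAATG and because the genes fall on both sides of the results that follow: ANKRD1 and TPM1 were higher on the arrays labelled SETDB1 OE, while CCN2 varied widely between the arrays of the HC/KA-SETDB1 OE and empty vector groups. The windows are 300 bases long, from 250 before to 50 after the gene's start, taken from RefSeq on GRCh38.p14 and written on the gene's strand, with GGAATG in capitals. They lie at chr10:90921038-90921337 on the minus strand for ANKRD1, at chr6:131951323-131951622 on the minus strand for CCN2 and at chr15:63048239-63048538 on the plus strand for TPM1.
ANKRD1: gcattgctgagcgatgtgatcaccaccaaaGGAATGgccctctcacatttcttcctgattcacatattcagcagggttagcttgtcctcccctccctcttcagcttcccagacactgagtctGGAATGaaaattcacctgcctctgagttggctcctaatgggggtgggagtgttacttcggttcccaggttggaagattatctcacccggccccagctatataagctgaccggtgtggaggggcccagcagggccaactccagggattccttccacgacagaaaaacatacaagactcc
CCN2: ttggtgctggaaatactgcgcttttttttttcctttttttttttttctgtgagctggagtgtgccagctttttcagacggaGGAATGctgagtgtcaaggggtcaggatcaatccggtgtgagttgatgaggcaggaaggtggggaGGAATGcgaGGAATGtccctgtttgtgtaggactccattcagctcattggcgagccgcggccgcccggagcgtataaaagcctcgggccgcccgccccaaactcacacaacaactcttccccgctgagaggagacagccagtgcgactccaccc
TPM1: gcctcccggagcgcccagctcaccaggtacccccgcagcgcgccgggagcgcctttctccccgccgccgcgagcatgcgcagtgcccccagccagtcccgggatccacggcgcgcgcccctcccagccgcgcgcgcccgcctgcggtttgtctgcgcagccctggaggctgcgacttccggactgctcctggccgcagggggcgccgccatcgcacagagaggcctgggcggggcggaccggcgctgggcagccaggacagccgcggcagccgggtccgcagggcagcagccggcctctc

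GGAATG was searched on both strands and stood 2 times in the ANKRD1 window, at -220 and -128, and 3 times in the CCN2 window, at -169, -104 and -95. Of the 35116 windows of all genes, 14.0% held it at least once, 1.37% at least 2 times and 0.128% at least 3 times. The TPM1 window held none, nor did it hold a CArG box, the SRF motif, or the letters TATAAA. Windows were found for 7 of the 10 genes, 11 windows in all, and GGAATG stood in those of 3 genes, the other being AMOTL2 in 1 of its 2 windows, at -69 on the opposite strand. A CArG box, held by 1.29% of all windows, stood in 1 of the 3 TPM4 windows, at -173, and TATAAA, held by 11.5%, stood in the CCN2 window at -32. No match overlapped another in these windows. CCN1, TAGLN and MYL9 had no window. A match is a description of the letters and was not tested against binding.

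Levels are normalized log2 intensities, so that a difference of 1 is a doubling, and the probe with the highest mean over the arrays stood for a gene. A probe counted as detected on an array at a detection p-value under 0.05. Of the 20 probes, 18 passed the filter of detection on at least 2 arrays, and 9 of the 10 genes had such a probe. The exception was CNN1, a calponin that binds actin in smooth muscle, whose only probe was not detected on any of the 8 arrays, with a lowest detection p of 0.11. Calls rest on limma's moderated test over 13974 genes, at a Benjamini-Hochberg adjusted p below 0.05.

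The arrays were alike in median intensity (89.0 to 94.4) and in the share of probes detected (44.6% to 45.7%), but the estimated background SD was 13.7 on SETDB1 OE replicate 1 and 25.9 on empty vector replicate 2, against 4.58 to 6.77 on the others. Of the HC/KA-SETDB1 OE arrays, replicate 2 correlated more with empty vector replicate 3 (r = 0.987) than with its own group (r = 0.978 at most), and replicate 1 about as much with empty vector replicate 1 (r = 0.970) as with its own group (r = 0.969 at most). The single passing SETDB1 probe goes against the label SETDB1 OE, although no difference passed: it read 8.0 and 7.66 on the arrays labelled SETDB1 OE and 8.32, 8.42 and 9.0 on HC/KA-SETDB1 OE arrays, against 8.25, 8.19 and 8.04 on empty vector arrays. The arrays labelled SETDB1 OE were lowest without overlap. Whether that probe can see the constructs is not known here, so the groups are named by their labels. All arrays lay on 1 chip with each group at neighbouring positions, so position and group cannot be told apart. Of 10 melanoma cell markers, 9 passed the filter, DCT being the exception.

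On the arrays labelled SETDB1 OE, ANKRD1 and TPM1 were each more than 4-fold higher than with the empty vector in background-corrected values, and ANKRD1, TPM1 and TAGLN were higher than on HC/KA-SETDB1 OE arrays. CCN1 and CCN2, usually read as YAP targets together with ANKRD1, passed in no comparison and varied widely between replicates. TPM2, TPM4, MYL9 and AMOTL2 did not pass in any comparison either. With limma, 2 of the 9 measured genes were called over empty vector in SETDB1 OE, where 0.265% of all genes were. In HC/KA-SETDB1 OE 0 were called, where 0.322% of all genes were, and between the constructs 3, where 4.34% were. The genes were chosen with earlier results of these data known, so a count beside its share is a description and not a test.

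**Figure D1:**
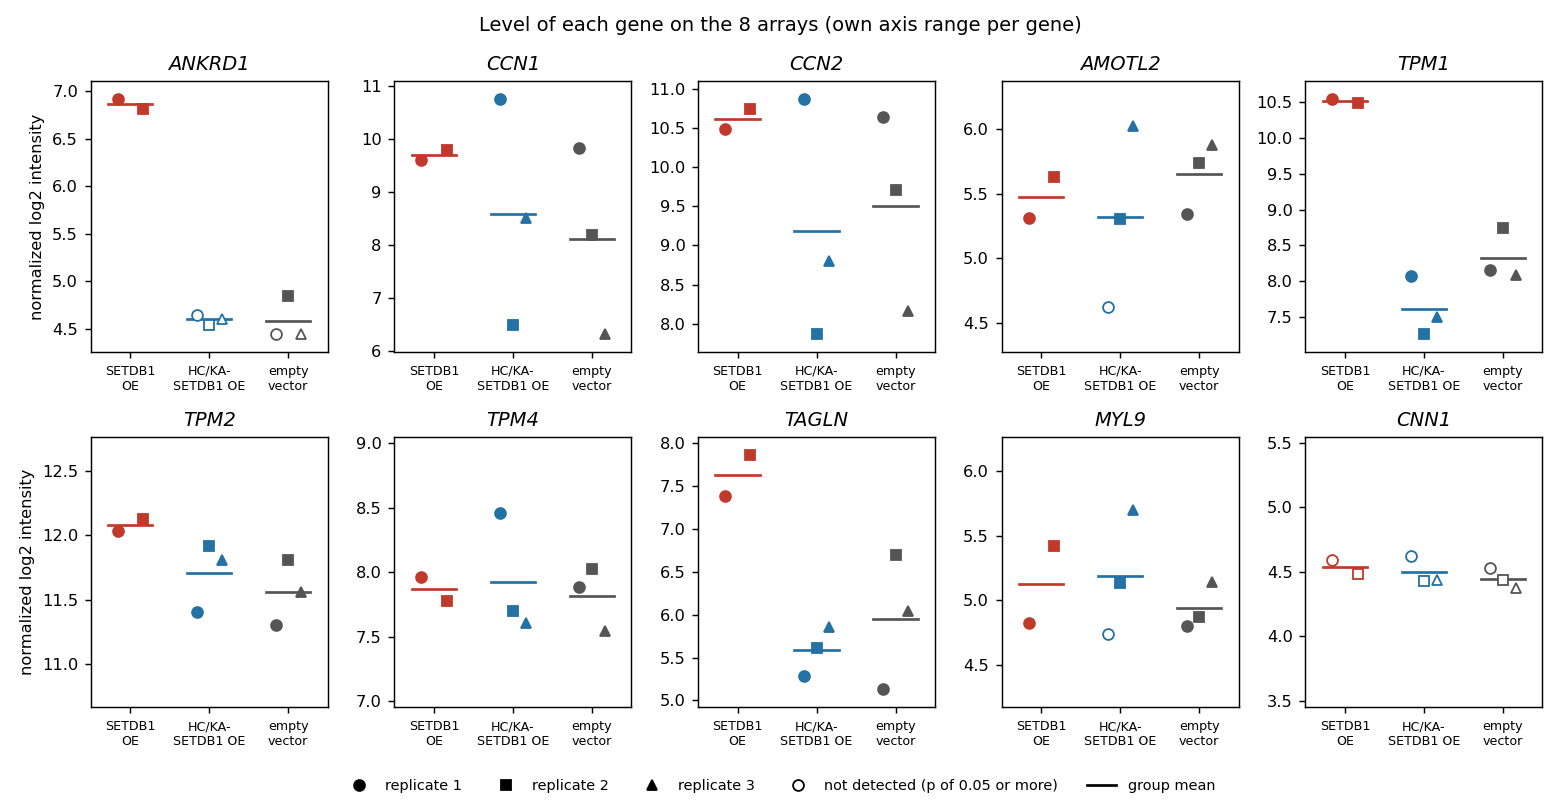
Normalized log2 intensity (vertical axis, own range per gene) of the 10 genes on the 8 arrays, with a point per array, shaped by replicate number, and a bar at the group mean; open points were not detected. ANKRD1 and TPM1 on the arrays labelled SETDB1 OE lie above all other arrays, CCN1 and CCN2 spread widely within the other groups, and CNN1 is open throughout.

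ANKRD1 encodes an ankyrin repeat protein that acts in the nucleus and at the muscle sarcomere. It read 6.91 and 6.81 on the arrays labelled SETDB1 OE, 4.65, 4.55 and 4.60 on HC/KA-SETDB1 OE arrays and 4.45, 4.85 and 4.45 on empty vector arrays. The arrays labelled SETDB1 OE stood apart from all others, and these were close to background: the probe was detected on 2 of 2 arrays labelled SETDB1 OE, on 0 of 3 HC/KA-SETDB1 OE arrays and on 1 of 3 empty vector arrays, replicate 2. As deposited, before any correction, its intensities were 205 and 193 on the arrays labelled SETDB1 OE, 89.9, 88.3 and 87.3 on HC/KA-SETDB1 OE arrays and 82.0, 97.3 and 84.1 on empty vector arrays. Without the arrays labelled SETDB1 OE the probe would not have passed the filter, so the gene was tested because of the group where it is high. With 1 of the 3 empty vector arrays above background, ANKRD1 rose 4.85-fold in SETDB1 OE over empty vector as fitted (log2 fold change 2.28, SE 0.20, adjusted p = 0.000675). Against HC/KA-SETDB1 OE, where the gene was not detected, it was at least 4.79-fold higher (fitted log2 fold change 2.26, SE 0.20, adjusted p = 0.000461). Between HC/KA-SETDB1 OE and empty vector, where 5 of the 6 arrays were not above background, the fitted difference (0.02) shows only that both lay at the floor. The size depends on the background step: without background correction the log2 difference was 1.09 over empty vector and 1.06 over HC/KA-SETDB1 OE, and in the authors' processed values 1.02 and 0.98, with the calls kept, so the bound holds for the corrected values only.

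TPM1 encodes a tropomyosin, a coiled coil that lies along actin filaments and regulates the access of myosin. It read 10.55 and 10.49 on the arrays labelled SETDB1 OE, 8.08, 7.27 and 7.50 on HC/KA-SETDB1 OE arrays and 8.15, 8.74 and 8.09 on empty vector arrays. The arrays labelled SETDB1 OE were again above all others. The HC/KA-SETDB1 OE arrays lay below the empty vector arrays without overlap by a narrow margin (8.08 against 8.09), which probe ILMN_1716687, given below, did not repeat. TPM1 rose 4.56-fold in SETDB1 OE over empty vector (log2 fold change 2.19, SE 0.28, adjusted p = 0.0108) and was 7.47-fold higher in SETDB1 OE than in HC/KA-SETDB1 OE (log2 fold change 2.90, SE 0.28, adjusted p = 0.000854). Between HC/KA-SETDB1 OE and empty vector the log2 difference of -0.71 (SE 0.25) had an unadjusted p of 0.0175 and did not pass adjustment (adjusted p = 0.284). The call over empty vector is less firm than the one against HC/KA-SETDB1 OE: it was lost without SETDB1 OE replicate 1 (adjusted p = 0.231), SETDB1 OE replicate 2 (adjusted p = 0.0927), empty vector replicate 1 (adjusted p = 0.0649) or empty vector replicate 3 (adjusted p = 0.0727), and with no filter (adjusted p = 0.0748). A group left with 1 array is assumed in these fits to vary like the others.

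The 4 TPM1 probes fell into pairs. Probe ILMN_1716687 read 10.34 and 10.52 on the arrays labelled SETDB1 OE, 8.02, 7.62 and 7.19 on HC/KA-SETDB1 OE arrays and 7.92, 8.68 and 7.84 on empty vector arrays, the same order of groups as ILMN_2360710, the probe that stood for the gene. Its HC/KA-SETDB1 OE and empty vector arrays overlapped, however, with a difference of -0.54 in the fit over probes (SE 0.27, adjusted p = 0.511). In that fit ILMN_1716687 rose by 2.28 in SETDB1 OE over empty vector (SE 0.30, adjusted p = 0.0213). It was higher by 2.82 than in HC/KA-SETDB1 OE (SE 0.30, adjusted p = 0.00265). Probes ILMN_1685339 and ILMN_2278152, annotated to a transcript other than the 2 of the first pair, lay near background. They were detected on 6 and 4 of the 8 arrays and their fitted values differed between SETDB1 OE and empty vector by -0.00 (SE 0.25) and 0.08 (SE 0.19). Averaging the passing probes therefore moved the log2 difference over empty vector to 1.14 and ended the call (adjusted p = 0.0800), and moved the one against HC/KA-SETDB1 OE to 1.36 with the call kept.

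TAGLN encodes transgelin, a calponin family protein that bundles actin and a known SRF target. It read 7.38 and 7.86 on the arrays labelled SETDB1 OE, 5.29, 5.62 and 5.86 on HC/KA-SETDB1 OE arrays and 5.13, 6.69 and 6.04 on empty vector arrays. The arrays labelled SETDB1 OE did not overlap either group, but the empty vector arrays spanned 2.95-fold, with replicate 2 highest. TAGLN was 4.10-fold higher in SETDB1 OE than in HC/KA-SETDB1 OE (log2 fold change 2.04, SE 0.39, adjusted p = 0.0203). Over empty vector its log2 difference of 1.67 (SE 0.39) did not pass (adjusted p = 0.123), and between HC/KA-SETDB1 OE and empty vector it was -0.37 (SE 0.35, adjusted p = 0.722). The call against HC/KA-SETDB1 OE was lost without HC/KA-SETDB1 OE replicate 3 (adjusted p = 0.0545) or either array labelled SETDB1 OE (adjusted p = 0.123 without replicate 1 and 0.152 without replicate 2) and with no filter (adjusted p = 0.0641), and the log2 difference was 1.18 without background correction.

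A second TAGLN probe, ILMN_2400935, read 5.26 and 5.31 on the arrays labelled SETDB1 OE, 4.40, 4.48 and 4.49 on HC/KA-SETDB1 OE arrays and 4.45, 4.45 and 4.48 on empty vector arrays. It was detected on the arrays labelled SETDB1 OE alone, so its folds are bounds. With limma it was at least 1.66-fold higher than in HC/KA-SETDB1 OE (adjusted p = 0.0355 over probes). Over empty vector it was also at least 1.66-fold higher (adjusted p = 0.120). The probe passed the filter through the arrays labelled SETDB1 OE alone, so these adjusted p-values are no separate support for TAGLN. The remaining probe, ILMN_1706783, annotated to another transcript, was not detected on any array.

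**Figure D2:**
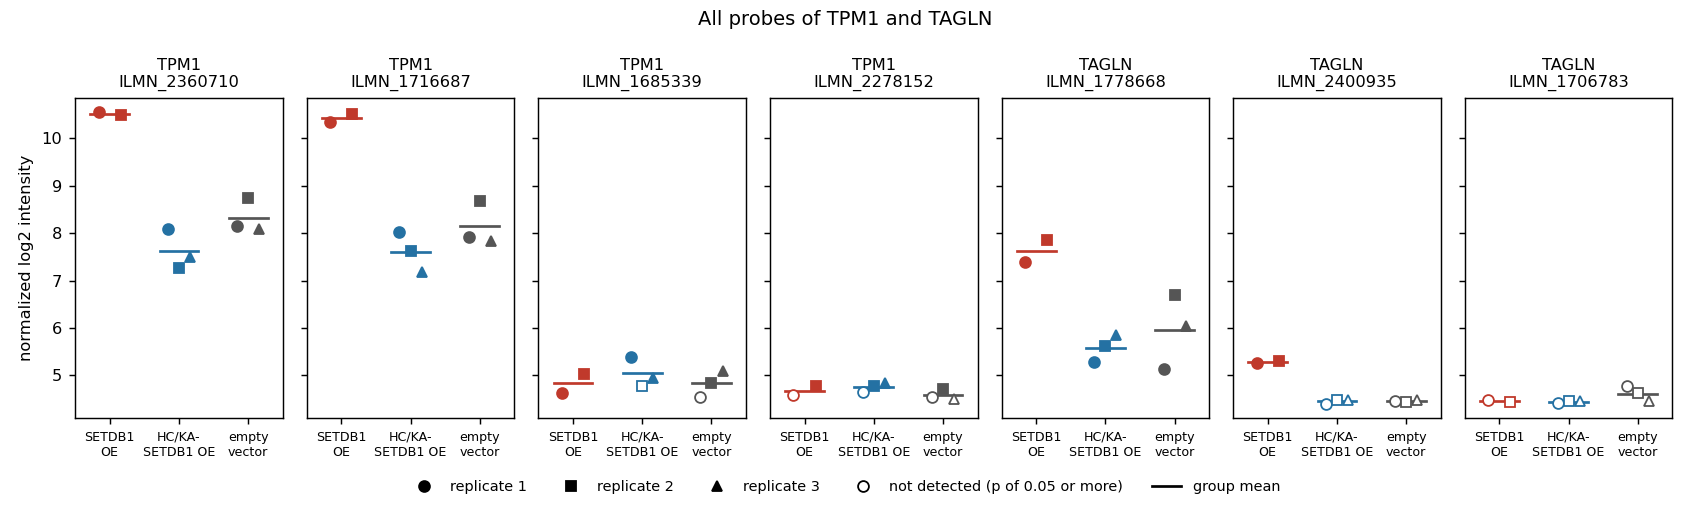
Normalized log2 intensity (vertical axis, shared) of the 4 TPM1 probes and the 3 TAGLN probes on the 8 arrays, with a point per array and a bar at the group mean; open points were not detected. The first TPM1 pair and the first TAGLN probe are high on the arrays labelled SETDB1 OE, the other TPM1 pair lies near background on all arrays, and the second TAGLN probe is detected on those arrays alone.

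CCN1 (CYR61) encodes a secreted protein of the extracellular matrix that signals through integrins. It read 9.59 and 9.79 on the arrays labelled SETDB1 OE, 10.74, 6.49 and 8.51 on HC/KA-SETDB1 OE arrays and 9.82, 8.17 and 6.32 on empty vector arrays. The groups overlapped throughout, and the highest and lowest arrays of the series belonged to the HC/KA-SETDB1 OE and empty vector groups. Within HC/KA-SETDB1 OE the arrays spanned 19.1-fold and within empty vector 11.3-fold. Its pooled SD within groups was 1.74, rank 1 of 13974 genes, where the median gene had 0.27. The log2 difference was 1.59 in SETDB1 OE over empty vector (95% interval -0.88 to 4.05, adjusted p = 0.670), 0.48 in HC/KA-SETDB1 OE over empty vector (95% interval -1.73 to 2.68, adjusted p = 0.889) and 1.11 in SETDB1 OE over HC/KA-SETDB1 OE (95% interval -1.35 to 3.58, adjusted p = 0.616). The interval over empty vector holds both 0 and the 2.28 of ANKRD1.

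CCN2 (CTGF), a secreted protein of the same family known for its part in fibrosis, varied in the same way. It read 10.49 and 10.74 on the arrays labelled SETDB1 OE, 10.87, 7.87 and 8.81 on HC/KA-SETDB1 OE arrays and 10.64, 9.71 and 8.16 on empty vector arrays. Replicate 1 was highest in both of the other groups and reached the level of the arrays labelled SETDB1 OE. The SD within groups was 1.26, rank 11 of 13974, with an 8.02-fold span in HC/KA-SETDB1 OE and a 5.57-fold span in empty vector. The log2 difference was 1.11 in SETDB1 OE over empty vector (95% interval -0.68 to 2.91, adjusted p = 0.684), -0.32 in HC/KA-SETDB1 OE over empty vector (95% interval -1.93 to 1.28, adjusted p = 0.899) and 1.44 in SETDB1 OE over HC/KA-SETDB1 OE (95% interval -0.36 to 3.23, adjusted p = 0.334). A second CCN2 probe, ILMN_2115125, gave the same order of arrays within the HC/KA-SETDB1 OE and empty vector groups, at 9.75, 7.20 and 7.63 and at 9.32, 8.36 and 7.27.

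The genes whose profiles over the 8 arrays lay nearest to CCN1, after each gene's mean was taken off, were JUN, CCN2, FOSB, FOS and DUSP1, with root mean square differences of 0.43, 0.55, 0.64, 0.74 and 0.74. CCN1 was looked up in this way after its spread had been seen, so the list is a description. JUN, FOSB and FOS encode subunits of the AP-1 transcription factor, and DUSP1 encodes a phosphatase of MAP kinases. On HC/KA-SETDB1 OE arrays JUN read 11.43, 7.43 and 8.61 and on empty vector arrays 10.23, 8.37 and 6.99. In all 6 genes replicate 1 was the highest array and replicate 2 the lowest of HC/KA-SETDB1 OE, and replicate 1 was the highest and replicate 3 the lowest of empty vector. On the arrays labelled SETDB1 OE, whose 2 CCN1 values differed by 0.20, JUN read 9.93 and 9.22. ANKRD1 cannot be set against this order, since its probe was not detected on 5 of the 6 arrays of these groups.

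**Figure D3:**
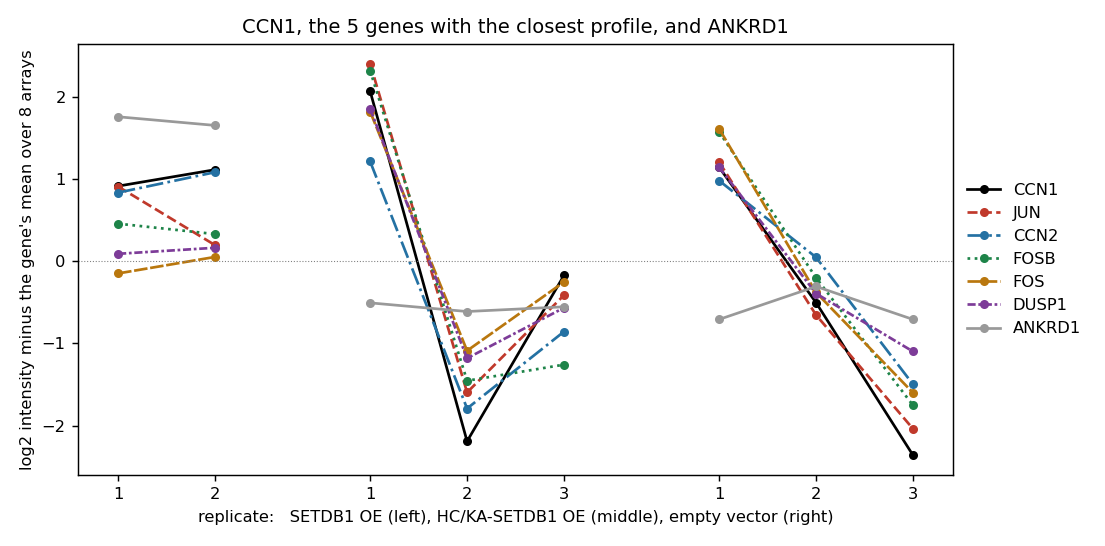
Log2 intensity minus each gene's mean over the 8 arrays (vertical axis) for CCN1, the 5 genes with the nearest profile and ANKRD1, by group and replicate (horizontal axis), with lines that join the arrays of a group. CCN1 and the 5 genes move over several log2 units together within the HC/KA-SETDB1 OE and empty vector groups, and ANKRD1, high on the arrays labelled SETDB1 OE, was not detected on 5 of the 6 arrays of those groups and lies at the background there.

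AMOTL2 encodes an angiomotin family protein that binds YAP at cell junctions and restrains it. It read 5.31 and 5.63 on the arrays labelled SETDB1 OE, 4.62, 5.31 and 6.03 on HC/KA-SETDB1 OE arrays and 5.34, 5.74 and 5.88 on empty vector arrays. The groups overlapped, and the probe was not detected on HC/KA-SETDB1 OE replicate 1. The log2 difference was -0.18 (SE 0.36, adjusted p = 0.914) in SETDB1 OE over empty vector, -0.33 (SE 0.32, adjusted p = 0.725) in HC/KA-SETDB1 OE over empty vector and 0.15 (SE 0.36, adjusted p = 0.851) in SETDB1 OE over HC/KA-SETDB1 OE.

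TPM2, also a tropomyosin gene, read 12.03 and 12.13 on the arrays labelled SETDB1 OE, 11.41, 11.92 and 11.80 on HC/KA-SETDB1 OE arrays and 11.30, 11.81 and 11.56 on empty vector arrays. The arrays labelled SETDB1 OE were highest without overlap, but the log2 difference of 0.52 over empty vector (95% interval 0.01 to 1.03) did not pass adjustment (adjusted p = 0.450), nor did that of 0.37 over HC/KA-SETDB1 OE (adjusted p = 0.383). Its second probe, ILMN_1757604, differed by 0.67 over empty vector (adjusted p = 0.393 over probes). TPM4, another tropomyosin gene, read 7.96 and 7.78 on the arrays labelled SETDB1 OE, 8.46, 7.70 and 7.61 on HC/KA-SETDB1 OE arrays and 7.89, 8.02 and 7.55 on empty vector arrays. Its groups overlapped, and the log2 difference was 0.05 (95% interval -0.56 to 0.67) in SETDB1 OE over empty vector and -0.05 (95% interval -0.66 to 0.56) over HC/KA-SETDB1 OE. Both intervals for TPM4 lie below the difference of TPM1. A second TPM4 probe, ILMN_1653180, was detected on 8 arrays. In SETDB1 OE it differed by -0.11 over empty vector, the other sign, and by -0.09 over HC/KA-SETDB1 OE (SE 0.31 each).

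MYL9 encodes the regulatory light chain of smooth muscle and non-muscle myosin, whose phosphorylation switches on contraction. It read 4.82 and 5.42 on the arrays labelled SETDB1 OE, 4.73, 5.14 and 5.70 on HC/KA-SETDB1 OE arrays and 4.80, 4.87 and 5.14 on empty vector arrays, with overlap between all groups. The log2 difference was 0.18 (SE 0.30, adjusted p = 0.886) in SETDB1 OE over empty vector, 0.25 (SE 0.27, adjusted p = 0.754) in HC/KA-SETDB1 OE over empty vector and -0.07 (SE 0.30, adjusted p = 0.927) in SETDB1 OE over HC/KA-SETDB1 OE. The probe was not detected on HC/KA-SETDB1 OE replicate 1. A second passing probe, ILMN_1776953, was detected on 2 arrays labelled SETDB1 OE, 1 HC/KA-SETDB1 OE array and 1 empty vector array. In the fit over probes it differed by 0.34 in SETDB1 OE over empty vector (adjusted p = 0.684). Over HC/KA-SETDB1 OE it differed by 0.40 (SE 0.22, adjusted p = 0.347), the other sign, narrowly without overlap (lowest 4.899 against highest 4.896).

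Counted over the 9 measured genes, 2 were called in SETDB1 OE over empty vector, both higher, where 0.265% of all genes were called in either direction and 0.200% as higher, and 4 stood above all empty vector arrays, where 15.7% of all genes did. Between HC/KA-SETDB1 OE and empty vector 0 of 9 were called with limma (1 at an unadjusted p under 0.05, as 12.5% of all genes were), where 0.322% of all genes were called, and TPM1 alone was without overlap, on the lower side, as 8.38% of all genes were. The replicate numbers may pair the arrays of these 2 groups, but the labels do not say so, and the main fit has no block. With the replicate number as a block the count over all genes was 127 in place of 45, still with 0 of the 9. In SETDB1 OE over HC/KA-SETDB1 OE 3 were called, all higher, where 4.34% of all genes were called in either direction and 2.08% as higher, and 4 did not overlap on the higher side, as 17.8% of all genes did. In the fits over probes, 0.112% of probes were called in SETDB1 OE over empty vector and 2.72% over HC/KA-SETDB1 OE. The genes were chosen with earlier results of these data known, and ANKRD1 passed the filter because of the arrays labelled SETDB1 OE. The counts are therefore a description and not a test of the set. The median log2 difference of the 9 genes was 1.11, 0.02 and 1.11 in the same order of comparisons, beside medians of -0.00, 0.01 and -0.01 over all genes. Each of these medians is the value of a single uncalled gene: CCN2, ANKRD1 (mostly undetected in that comparison) and CCN1. The first became 0.52 without empty vector replicate 3, and the last became 0.47 without HC/KA-SETDB1 OE replicate 2 and 1.89 without HC/KA-SETDB1 OE replicate 1. With the replicate block they were 0.69 and 0.65. Each pair of comparisons shares a group of arrays, so their values are not independent.

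**Figure D4:**
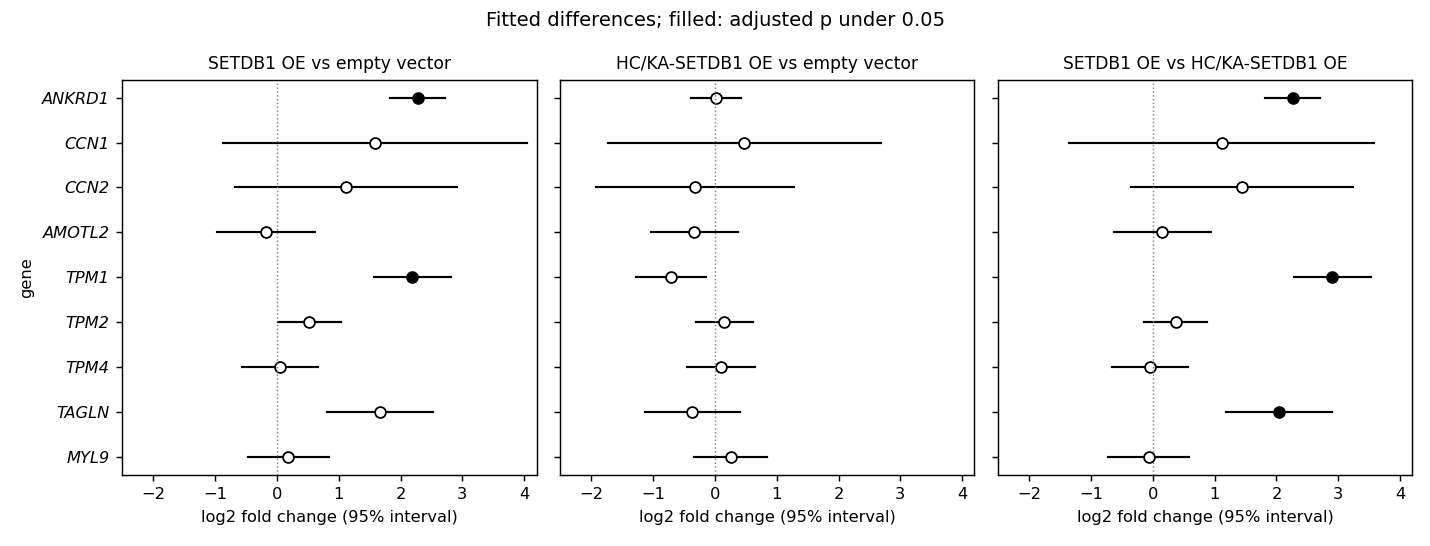
Log2 fold change (horizontal axis) with its 95% interval for the 9 measured genes in the 3 comparisons; filled points have an adjusted p under 0.05. ANKRD1 and TPM1 are filled in both comparisons of SETDB1 OE, TAGLN is filled against HC/KA-SETDB1 OE, the middle panel has no filled point (ANKRD1 there is mostly below detection), and the intervals of CCN1 and CCN2 are the widest.

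The profiles nearest to that of ANKRD1 over the 8 arrays were those of CD24, TAC1, SPANXD, IL7R and RAB27B, with root mean square differences from 0.19 to 0.27. Nearest to TPM1 were RAB27B, IL7R, KRT80, ANKRD1 and TFPI2, with differences from 0.32 to 0.41. The ANKRD1 probe was detected on 2 of 2 arrays labelled SETDB1 OE, 0 of 3 HC/KA-SETDB1 OE arrays and 1 of 3 empty vector arrays. Its nearness to TPM1 mainly restates that both were high on the arrays labelled SETDB1 OE, and is a description. The genes nearest to TAGLN, looked up after its values were seen, were HAS3, PDLIM4, IL1B, SLITRK6 and EFNB2, from 0.29 to 0.35.

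Of 22 other YAP/TEAD target genes, 20 were measured. This list and the other lists below were chosen with earlier results of these data known, so their counts are descriptions. In SETDB1 OE over HC/KA-SETDB1 OE 6 of them rose and 1 fell, where 2.08% of all genes rose and 4.34% were called in either direction, and the list's median log2 difference was 0.68. Those higher were IGFBP3, a binding protein of insulin-like growth factors (2.31, SE 0.30, adjusted p = 0.00474), NT5E, a cell-surface enzyme that makes adenosine (2.05, SE 0.34, adjusted p = 0.0124), the receptor tyrosine kinase AXL (1.26, SE 0.23, adjusted p = 0.0184), the transmembrane protein CRIM1 (1.47, adjusted p = 0.0272), tissue factor F3 (0.97, adjusted p = 0.0287) and the Rac activator DOCK5 (0.98, adjusted p = 0.0419). RBMS3, an RNA-binding protein, fell by 1.62 on the log2 scale (adjusted p = 0.0295). Several of these calls depend on the processing. With the deposited processed values those of CRIM1, F3, DOCK5 and RBMS3 were lost. With only the 2 groups compared, those of IGFBP3, NT5E and CRIM1 alone were kept. Over 18 alternatives DOCK5 was called in 6, and F3 and RBMS3 in 10 each. 

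Over empty vector none of the 20 was called in SETDB1 OE with limma, 11 had an unadjusted p under 0.05 where 10.8% of all genes did, and the median was 0.60. AXL had the smallest adjusted p there. It read 10.92 and 10.56 on the arrays labelled SETDB1 OE, 9.81, 9.44 and 9.18 on HC/KA-SETDB1 OE arrays and 9.56, 9.64 and 9.46 on empty vector arrays, and its log2 difference of 1.19 (SE 0.23) had an adjusted p of 0.0837. IGFBP3 differed in its order: it read 11.58 and 11.59 on the arrays labelled SETDB1 OE, 8.62, 9.60 and 9.61 on HC/KA-SETDB1 OE arrays and 10.94, 10.83 and 10.55 on empty vector arrays. Its difference in HC/KA-SETDB1 OE over empty vector was -1.50 (SE 0.27, adjusted p = 0.0544), and none of the 20 passed in that comparison (1 at an unadjusted p under 0.05, as 12.5% of all genes were, and a median of -0.06; 0.322% of all genes were called).

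Of 20 genes of the Hippo pathway and YAP machinery 16 were measured, none was called against empty vector in either group with limma (2 in SETDB1 OE, where 10.8% of all genes were, and 0 in HC/KA-SETDB1 OE, where 12.5% were, at an unadjusted p under 0.05), and the medians were 0.13 in SETDB1 OE over empty vector, 0.04 in HC/KA-SETDB1 OE over empty vector and -0.00 in SETDB1 OE over HC/KA-SETDB1 OE. The 1 call of 16, in a comparison where 4.34% of all genes were called, was TEAD2, a TEAD transcription factor, which fell by 1.36 in SETDB1 OE against HC/KA-SETDB1 OE (SE 0.26, adjusted p = 0.0197). YAP1 itself read 8.97 and 9.01 on the arrays labelled SETDB1 OE, 8.57, 8.17 and 8.01 on HC/KA-SETDB1 OE arrays and 8.69, 8.15 and 7.86 on empty vector arrays. The arrays labelled SETDB1 OE were highest without overlap, yet the differences of 0.76 over empty vector (adjusted p = 0.328) and 0.74 over HC/KA-SETDB1 OE (adjusted p = 0.141) did not pass. WWTR1 differed by 0.24 and TEAD1 by 0.20 over empty vector, and neither passed. Transcript levels do not report where YAP protein is in the cell.

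Of 26 other actin, myosin and contractile genes, 21 were measured and none was called in any comparison with limma, with 4, 1 and 3 at an unadjusted p under 0.05 in SETDB1 OE over empty vector, HC/KA-SETDB1 OE over empty vector and SETDB1 OE over HC/KA-SETDB1 OE. Over all genes the shares at that p were 10.8%, 12.5% and 22.1% in the same order. The list's medians were 0.11, 0.02 and 0.17. The smallest adjusted p belonged to MYO1E, an unconventional myosin, in SETDB1 OE over empty vector (0.58, adjusted p = 0.265), and to the actin-capping subunit CAPZB (-0.61, adjusted p = 0.104) and the myosin light chain MYL6 (0.73, adjusted p = 0.120) in SETDB1 OE over HC/KA-SETDB1 OE. Of 26 genes of the SRF and MRTF axis and of focal adhesions, 25 were measured, with medians of 0.23, 0.12 and -0.05. Over HC/KA-SETDB1 OE 2 of the 25 were called, where 4.34% of all genes were, and 5 had an unadjusted p under 0.05, where 22.1% of all genes did. CAV1, the coat protein of caveolae, rose by 1.09 (SE 0.22, adjusted p = 0.0269) and the LIM-domain protein FHL2 by 0.86 (SE 0.20, adjusted p = 0.0434) in SETDB1 OE over HC/KA-SETDB1 OE. Neither passed over empty vector, at 1.01 (adjusted p = 0.118) and 0.73 (adjusted p = 0.211). SRF differed by 0.18 and its coactivator MRTFA by 0.08 in SETDB1 OE over empty vector, and neither passed. Of the 10 calls in the 4 lists, 0 were kept without SETDB1 OE replicate 1 (adjusted p between 0.0621 and 0.238), 0 without SETDB1 OE replicate 2 (adjusted p between 0.0519 and 0.192) and 2, those of IGFBP3 and NT5E, without HC/KA-SETDB1 OE replicate 3, while 7 to 10 were kept without any 1 of the other arrays. Among the members called over HC/KA-SETDB1 OE, ANKRD1 and TPM1 kept their calls without any 1 of the 8 arrays. TAGLN lost its call without either array labelled SETDB1 OE or without HC/KA-SETDB1 OE replicate 3. ANKRD1 passed the filter because of the arrays labelled SETDB1 OE, so its kept calls are no separate support.

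**Figure D5:**
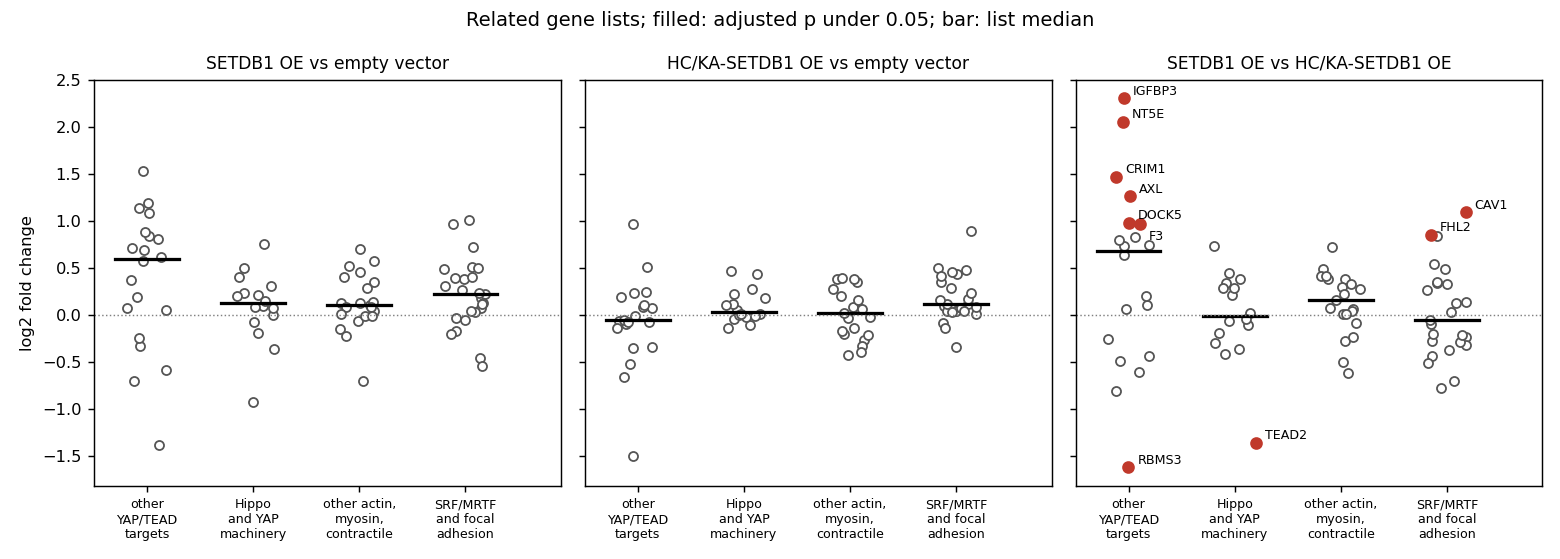
Log2 fold change (vertical axis) of each measured gene of the 4 related lists (horizontal axis) in the 3 comparisons, with a bar at the list's median; filled and named points have an adjusted p under 0.05. Filled points appear in SETDB1 OE over HC/KA-SETDB1 OE alone, most of them in the list of other YAP/TEAD targets, whose medians of 0.60 and 0.68 are the furthest from 0.

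Markers of other cell types that express the same contractile genes were read beside them. Of 10 smooth muscle markers 4 passed the filter, and MYH11, DES and MYOCD, which define that cell type, did not; the summed level of the 4 was 3288 to 3317 on the arrays labelled SETDB1 OE, 2472 to 4730 on HC/KA-SETDB1 OE arrays and 2482 to 3048 on empty vector arrays. Of 10 fibroblast markers 8 passed, with a summed level of 985 to 1847 on the arrays labelled SETDB1 OE, 2366 to 2641 on HC/KA-SETDB1 OE arrays and 1216 to 2003 on empty vector arrays. In SETDB1 OE over HC/KA-SETDB1 OE, 5 of the 8 fibroblast markers were positive and 3 negative, with a median log2 difference of 0.37. Without overlap 4 were higher and 2 lower, as were 2493 and 2669 of all 13974 genes. DCN, not detected on the 3 HC/KA-SETDB1 OE arrays, was the 1 called (higher, adjusted p = 0.0478), where 4.34% of all genes were. Over empty vector 2 of the 8 were positive in SETDB1 OE, with a median of -0.09, and 2 of the 8 in HC/KA-SETDB1 OE, with a median of -0.30. In HC/KA-SETDB1 OE over empty vector 1 was higher and 3 lower without overlap, as were 1185 and 1171 of all 13974 genes. Of the 4 smooth muscle markers SMTN, which encodes smoothelin, passed in SETDB1 OE over HC/KA-SETDB1 OE (1.15, adjusted p = 0.0155), and 3 were negative there. In that comparison 4.34% of all genes were called. Over empty vector 0 of the 4 were called in SETDB1 OE. Of 7 endothelial markers 3 passed, and PECAM1 and CDH5 did not. The 3 summed to 75.4 to 77.8 on the arrays labelled SETDB1 OE, 72.5 to 86.2 on HC/KA-SETDB1 OE arrays and 81.8 to 90.4 on empty vector arrays. The 9 measured melanoma markers summed to 7656 to 8494 on the arrays labelled SETDB1 OE, 9639 to 13885 on HC/KA-SETDB1 OE arrays and 15200 to 21648 on empty vector arrays, without overlap between the groups. Their signs were not alike in both groups. In SETDB1 OE over empty vector 9 of 9 were negative (median -0.91), beside 7007 of all 13974 genes. TYR passed there with limma (-1.50, adjusted p = 0.0382), where 0.265% of all genes were called. In HC/KA-SETDB1 OE over empty vector 6 of 9 were positive (median 0.11), beside 7240 of all 13974 genes. There 0 passed, where 0.322% of all genes were called, and 2 had an unadjusted p under 0.05, as 12.5% of all genes did. Over HC/KA-SETDB1 OE, TYR (-1.62, adjusted p = 0.0077) and S100B (-1.36, adjusted p = 0.0445) passed in SETDB1 OE, where 4.34% of all genes were called. The markers with values here were named after those were seen. Their part in the results above was not tested.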

How the data were processed

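RNA of 8 HT144 samples was measured on Illumina bead arrays. The authors deposited a linear intensity per probe, not normalized between arrays per the file headers, and beside it a detection p-value. They also deposited processed log2 values, used as an alternative only. Of 48107 probes, 5 with a missing cell were left out. Symbols came from the platform annotation, updated through RefSeq's gene table: 30110 probes had 1 symbol, 8 had several and 17984 were not listed. Intensities were corrected and normalized with neqc (offset 16, background from the detection p-values) in limma 3.58.1 under R 4.3.3. Kept were the 26689 probes detected (p under 0.05) on 2 arrays or more, and the probe of highest mean stood for each of 13974 genes; 3815 genes had several passing probes. limma (lmFit, contrasts.fit, eBayes) was fitted over the 8 arrays with group terms, two-sided, with Benjamini-Hochberg adjustment over the genes, or over the 26689 probes for single probes, and was tested on simulated data.

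Where a probe was undetected on every array of a group, the fold is a bound against the higher of its own value and the lowest detected value, averaged over arrays. Samples were grouped by their titles. Every member was named; of the related lists, called genes and those of smallest adjusted p were eligible, with YAP1, WWTR1, TEAD1, SRF and MRTFA. Members and lists were chosen with earlier results of these data known. Deviations of same-numbered arrays from their group means correlated at 0.459, 0.189 and 0.145 between HC/KA-SETDB1 OE and empty vector. A pairing by number is therefore possible but not settled. The labels give none, and HC/KA-SETDB1 OE replicate 2 correlated more with empty vector replicate 3 (0.365). With 2 shared numbers, SETDB1 OE was not taken as paired (0.147 and 0.119 with empty vector, 0.116 and 0.0309 with HC/KA-SETDB1 OE). The number of arrays limits the precision. Alternatives changed the normalization, offset, filter, probe summary, array weights, block and samples. Figures were drawn with matplotlib 3.10.9.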

Additional observations from a re-analysis of the deposited data

How the results depend on the processing

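Over 18 alternatives, 441 of 483 refitted values of the 9 genes kept their direction and their side of the threshold, 10 lost a call, 1 gained one and 31 changed sign, all of these uncalled. ANKRD1 was called in each of the 17 alternatives that tested it, by 1.02 to 2.41 over empty vector and 0.98 to 2.46 over HC/KA-SETDB1 OE. The stricter filter (detection p under 0.01 on 3 arrays) did not test it. The alternatives share arrays, and the gene passed the main filter because of the arrays labelled SETDB1 OE, so they are no separate support. TPM1 was called in 12 of 18 over empty vector and 18 of 18 over HC/KA-SETDB1 OE, and TAGLN in 14 of 18 over HC/KA-SETDB1 OE. The 2 calls over empty vector became 1 with the stricter filter (TPM1), and 1 with no filter or with the mean of passing probes (ANKRD1), and lay between 1 and 2 with an array left out. With the replicate block, TAGLN over empty vector passed (1.76, adjusted p = 0.0409), AMOTL2 and TPM4 over empty vector changed sign (0.0541 and -0.0938), as did MYL9 over HC/KA-SETDB1 OE (0.11), and no other call changed.

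Genes called over empty vector numbered 37 in SETDB1 OE, against 23 with the deposited values, 16 with an offset of 50, 16 with no filter, 140 with array weights and 155 with only the 2 groups, and 11 to 103 with an array left out. In HC/KA-SETDB1 OE they numbered 45, against 17 with the deposited values, 18 with no background correction, 9 with an offset of 50, 6 with no filter, 96 with array weights and 127 with the block, and 2 to 255 with an array left out. Between the constructs they numbered 606, against 274 with no filter, 1159 with array weights and 168 with only the 2 groups, and 41 to 1315 with an array left out.

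Uncalled differences that changed sign were these. With array weights AMOTL2 was -0.075 and TPM4 0.0806 over HC/KA-SETDB1 OE, and in HC/KA-SETDB1 OE over empty vector ANKRD1 was -0.0478 and TPM4 -0.0518. Scaled to the 75th percentile, ANKRD1 was -0.22 in HC/KA-SETDB1 OE over empty vector and MYL9 0.0195 in SETDB1 OE over HC/KA-SETDB1 OE. With the mean of probes MYL9 was 0.17 there and TPM4 -0.0293 over empty vector. With an array left out, in HC/KA-SETDB1 OE over empty vector the range was -0.0501 to 0.15 for ANKRD1, -0.61 to 1.52 for CCN1, -1.17 to 0.34 for CCN2, -0.69 to 0.0154 for AMOTL2, -0.16 to 0.26 for TPM4 and -0.0028 to 0.48 for MYL9. In SETDB1 OE it was -0.0835 to 0.15 for TPM4 and -0.11 to 0.48 for MYL9 over empty vector, and -0.20 to 0.51 for AMOTL2, -0.21 to 0.22 for TPM4 and -0.37 to 0.23 for MYL9 over HC/KA-SETDB1 OE. The causes were not tested. Signal near background limits the folds of ANKRD1 outside SETDB1 OE, MYL9 and the second TAGLN probe.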
